A study of Mus musculus with 12 samples.

Results

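The genes described are the ADAM, ADAMTS and MMP metalloproteases and their TIMP inhibitors, measured in cells sorted from mouse colon adenomas. Members were all genes with a single symbol on the array that had the form Adam, Adamts, Mmp or Timp followed by a number. This gave 61 of the 17097 genes on the array: 26 ADAM, 14 ADAMTS, 18 MMP and 3 TIMP genes. Timp4 and Mmp15 were not analysed here.

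The cells were sorted by Mex3a, which encodes an RNA-binding protein, and by Lgr5, the R-spondin receptor used as a marker of intestinal stem cells. The 4 populations were the double positive Mex3a+ Lgr5+ cells, the Mex3a+ Lgr5- cells, the Mex3a- Lgr5+ cells and the double negative Mex3a- Lgr5- cells, with 1 array from each of 3 mice (MKL347, MKL358 and MKL367), or 12 arrays in all. Each array came from a pool of adenomas of 1 mouse. The pools held 500 sorted cells for mouse MKL358 and 2000 for the other mice. Every sample, in all 4 populations, carries the genotype ki/+, which the labels do not explain, and they give no age, strain or reporter. Values are log2 signals as deposited, and values of a gene are given in the order MKL347, MKL358, MKL367.

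ADAM proteins sit in the cell membrane and, where they keep the zinc-binding motif, cut other membrane proteins close to the cell surface, which sheds growth factors, cytokines and receptors. ADAMTS proteins are secreted and cut proteoglycans and other matrix proteins. MMPs, secreted or anchored in the membrane, cut collagens, other matrix proteins and many cell surface proteins, and are made as inactive proenzymes. TIMPs bind the active site of MMPs, and TIMP3 also blocks several ADAM and ADAMTS enzymes. In tumours many of these genes are known from fibroblasts and leukocytes as well as from the tumour cells. Among the MMPs, Mmp7 (matrilysin) is known from intestinal adenoma cells themselves.

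Of the 61 members, 32 passed the filter on low signals (a log2 signal above 4.40, the 40th percentile of the whole table, on 3 or more arrays). These were 14 ADAM, 8 ADAMTS, 7 MMP and 3 TIMP genes. Another 21 members were above 4.40 on 0 arrays and 8 on 1 array. The 14 ADAM genes known mainly from testis and epididymis had 3 members tested, and the 4 collagenase genes (Mmp1a, Mmp1b, Mmp8 and Mmp13) had 0.

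The sort was checked on the transcripts of its markers. Mex3a was at 6.89, 6.86 and 7.31 in Mex3a+ Lgr5+ cells and at 7.03, 6.78 and 6.91 in Mex3a+ Lgr5- cells, against 6.28, 6.57 and 6.47 in Mex3a- Lgr5+ cells and 5.93, 5.94 and 6.49 in Mex3a- Lgr5- cells. Its 6 Mex3a+ arrays lay above all 6 Mex3a- arrays (log2 difference 0.69, SE 0.12, limma adjusted p = 0.00162). Lgr5 differed by Lgr5 status by 1.55 (SE 0.139, limma adjusted p = 0.000872). It also differed by Mex3a status, most in the Lgr5- populations, where it averaged 7.29 in Mex3a+ Lgr5- cells and 6.01 in Mex3a- Lgr5- cells (a difference of 1.27, SE 0.197, limma adjusted p = 0.00214). All 7 epithelial markers were above the filter level on 12 arrays, with a mean log2 signal of 10.45 to 10.71 on Mex3a+ arrays and 10.87 to 11.11 on Mex3a- arrays. Of these 7, 6 were lower in Mex3a+ cells and 0 higher by limma without the mouse as a block, and 6 lower and 1 higher with it. Of the 10 macrophage and other myeloid markers, 6 passed the filter. Among these, Cd68, Csf1r and Lyz2 were above its level on all 12 arrays, Mrc1 on 8, C1qa on 7 and C1qc on 4, while C1qb was above it on 2 and Ptprc, Adgre1 and Itgam on 0. Lyz2 stood far above the other myeloid markers, at 11.55 to 11.87 over the arrays, and raises their mean. The mean over the 10 markers was 4.98 to 5.08 on Mex3a+ arrays and 4.92 to 5.39 on Mex3a- arrays. By Mex3a status, limma called 0 of the 6 without the block, and 1 as lower in Mex3a+ cells with it. Of 7 endothelial markers 5 passed the filter, with 0 called without the block and 1 higher in Mex3a+ cells with it. Their mean was 4.28 to 4.46 on Mex3a+ arrays and 4.20 to 4.49 on Mex3a- arrays. In pooled cells, fewer cells of a type and less RNA per cell cannot be told apart.

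The first comparison asked how the protease and inhibitor genes of Mex3a+ cells differed from those of Mex3a- cells, averaged over Lgr5 status (6 arrays against 6). The metalloprotease Adam12, the stromelysin Mmp11 and the inhibitor Timp2 were higher in Mex3a+ cells by 4.62-fold, 2.49-fold and 2.12-fold. Timp1, Adam8, Adamts4, Adamts7, Adam11, Adamts16, Adam10 and Mmp14 were higher by 1.28-fold to 1.62-fold. In all, limma called 11 of the 32 tested members higher in Mex3a+ cells (9.91% of the 12595 genes tested were called higher), 0 lower (17.3% of all genes tested) and 21 neither way, at an adjusted p under 0.05. By family, 4 of 14 ADAM, 3 of 8 ADAMTS, 2 of 7 MMP and 2 of 3 TIMP genes were higher. Over all 61 members, without any filter, the median log2 difference was 0.063, against 0.008 over the 17097 genes.

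The arrays come in sets of 4 per mouse, and a fit with the mouse as a block called 12 members higher and 5 lower (15.9% and 25.3% of all genes tested). The members that it added were Adamts1, which was higher, and Adam9, Adam15, Adam28, Adamts15 and Mmp9, which were lower. Without the block, the count in both directions was 4 when mouse MKL347 was left out, 7 when MKL367 was and 11 when MKL358 was. The share of all genes called in these smaller fits was not counted, so whether the lower counts are particular to the members was not tested. The 11 without MKL358 were not the same set. They held Adam9 as lower (-0.58, limma adjusted p = 0.00300) and no longer held Adamts7 (0.41, limma adjusted p = 0.0633). Without MKL347 the log2 difference of the lost calls was 0.38 for Adam10, 0.39 for Adamts16, 0.36 for Adamts7, 0.31 for Mmp14, 1.17 for Mmp11 and 0.52 for Timp1, and 0.33 for Adam8, which moved most (0.57 over all mice). Adam12, Adamts4 and Timp2 were called in all 15 fits that left out 1 mouse or 1 array, at a limma adjusted p of at most 0.0399, 0.0463 and 0.0200. Adamts4 passed the filter on low values only through its Mex3a+ arrays, so its place in these counts is a description.

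**Figure D1:**
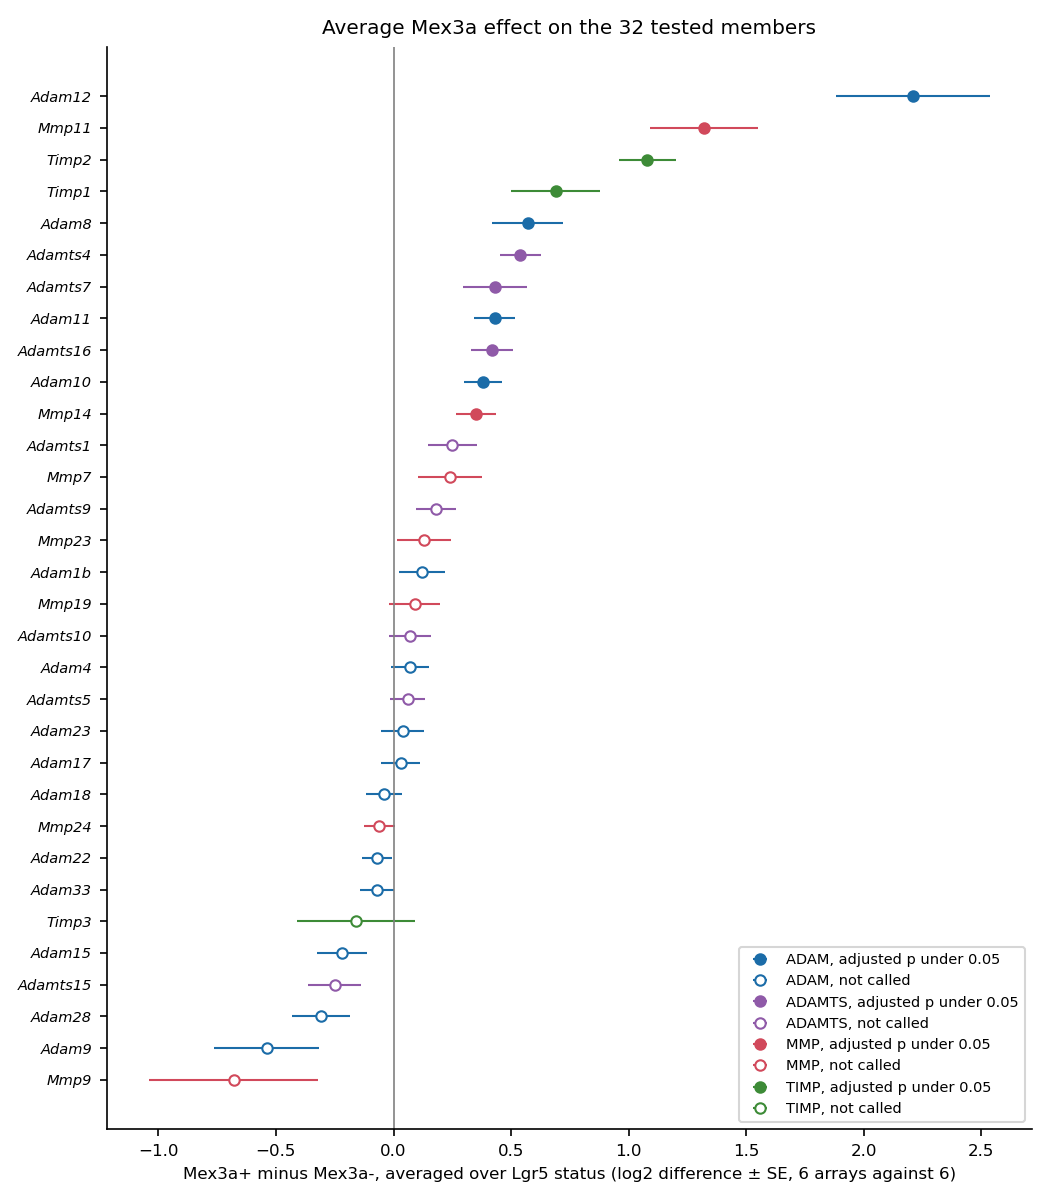
Log2 difference between Mex3a+ and Mex3a- cells (x axis, averaged over Lgr5 status, with the limma standard error as bars) for the 32 tested members, sorted by this difference and coloured by family. Filled points have a limma adjusted p under 0.05; the 11 filled points all lie to the right of 0, with Adam12 farthest out at 2.21, while Mmp9 at -0.68 and Adam9 at -0.54 lie to the left with open points.

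Among the ADAM genes with the zinc-binding motif, Adam12 had the largest difference of any member. ADAM12 is a membrane-bound or secreted protease that is low in most adult tissues and is known to cut HB-EGF and IGF-binding proteins. Its log2 signal was 9.04, 8.08 and 8.47 in Mex3a+ Lgr5+ cells and 8.72, 8.11 and 8.62 in Mex3a+ Lgr5- cells. The Mex3a- Lgr5+ cells had 6.92, 5.59 and 7.17, and the Mex3a- Lgr5- cells 5.92, 5.23 and 6.98. Every Mex3a+ array lay above every Mex3a- array, and the Mex3a- arrays were the more scattered (SD 0.369 over the 6 Mex3a+ arrays and 0.823 over the 6 Mex3a- arrays). The log2 difference was 2.21 (SE 0.327, limma adjusted p = 0.000644), and within the mice it was 2.46, 2.69 and 1.47. A dimmer probe set of the gene gave 1.86 (SE 0.270, limma adjusted p over all probe sets 0.000609).

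ADAM10 and ADAM17 are the main sheddases of epithelial cells, and ADAM10 makes the cut of Notch receptors that follows ligand binding. Adam10 was at 9.59, 9.38 and 9.48 in Mex3a+ Lgr5+ cells and 9.53, 9.34 and 9.24 in Mex3a+ Lgr5- cells, against 9.15, 8.83 and 9.08 in Mex3a- Lgr5+ cells and 9.16, 8.92 and 9.09 in Mex3a- Lgr5- cells. The shift was small but without overlap between the 6 Mex3a+ and the 6 Mex3a- arrays (log2 difference 0.38, SE 0.0796, limma adjusted p = 0.00417; 0.0527 without mouse MKL347). Its other probe sets gave 0.32 and 0.34 (adjusted over all probe sets, limma's p was 0.0484 and 0.0882). Adam17 ranged from 8.17 to 8.59 on the Mex3a+ arrays and from 8.15 to 8.45 on the Mex3a- arrays. These ranges overlapped almost fully, and the log2 difference of 0.03 (SE 0.0847, limma adjusted p = 0.821) was not called. The 3 probe sets of Adam17 gave 0.03, 0.17 and 0.03.

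Adam8, a protease known best from leukocytes and tumour cells, was at 7.99, 7.55 and 7.63 in Mex3a+ Lgr5+ cells and 7.47, 7.21 and 7.35 in Mex3a+ Lgr5- cells. Mex3a- Lgr5+ cells had it at 7.06, 7.05 and 7.02, and in Mex3a- Lgr5- cells at 6.32, 6.96 and 7.38. The groups overlapped through the Mex3a- Lgr5- array of MKL367, and the gene was higher in 5 of 6 comparisons within a mouse. Its log2 difference was 0.57 (SE 0.152, limma adjusted p = 0.0164), and 0.124 was the adjusted p without mouse MKL347. Adam11 has lost the zinc-binding motif and is known as an adhesion protein of neurons. It averaged 5.71 ± 0.171 in Mex3a+ cells and 5.28 ± 0.198 in Mex3a- cells (SD, n = 6 arrays each), a log2 difference of 0.43 (SE 0.0873, limma adjusted p = 0.00365; 0.105 without mouse MKL367). The groups overlapped, and its other probe set gave 0.08 (limma adjusted p over all probe sets 0.333).

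Adam9, Adam15 and Adam28 had lower means in Mex3a+ cells and were called with the mouse as a block but not by limma's fit without it on all 12 arrays. Adam9, a widely expressed ADAM, was at 6.45, 5.52 and 6.22 in Mex3a+ Lgr5+ cells and 6.35, 5.68 and 6.21 in Mex3a+ Lgr5- cells. In Mex3a- Lgr5+ cells it was at 6.81, 5.99 and 6.68, and in Mex3a- Lgr5- cells at 7.11, 6.14 and 6.96. Mouse MKL358 was low in all 4 populations, so the groups overlapped across mice, while within each mouse both Mex3a+ arrays lay below both Mex3a- arrays. The log2 difference was -0.54 (SE 0.223, limma adjusted p = 0.0943; 2.68e-05 with the mouse as a block), and it lay between -0.75 and -0.36 in the 6 comparisons within a mouse. With the block, Adam9 was called in 15 of 15 fits that left out a mouse or an array, with a limma adjusted p of at most 0.00243. Without the block it passed when mouse MKL358 or its Mex3a- Lgr5- array was left out (limma adjusted p = 0.00300 and 0.0286).

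Adam28 averaged 5.57 ± 0.0990 in Mex3a+ cells and 5.88 ± 0.293 in Mex3a- cells (SD, n = 6 arrays each), with a log2 difference of -0.31 (limma adjusted p = 0.0841; 0.0197 with the block). The largest part came from mouse MKL367, at -0.63, and without this mouse the difference was -0.15 (limma adjusted p = 0.261 with the block). Without the block it passed when the Mex3a- Lgr5+ array of MKL347 was left out (-0.40, limma adjusted p = 0.0219). Adam15, whose human protein carries an integrin-binding motif, had a log2 difference of -0.22 at its brightest probe set (limma adjusted p = 0.155; 0.0318 with the block, a call kept in 5 of 15 fits that left out a mouse or an array). Its probe sets did not give 1 answer: the others gave -0.67, -0.60 and -0.38 (adjusted over all probe sets, limma's p was 0.00175, 0.00437 and 0.0568). The mean of its probe sets gave -0.47 (limma adjusted p = 0.00485).

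Among the secreted ADAMTS genes, Adamts4, Adamts7 and Adamts16 were higher in Mex3a+ cells. ADAMTS4 is an aggrecanase, which cuts the proteoglycans aggrecan and versican. Adamts4 was at 4.89, 4.53 and 4.84 in Mex3a+ Lgr5+ cells and 4.99, 4.81 and 4.72 in Mex3a+ Lgr5- cells, against 4.21, 4.25 and 4.36 in Mex3a- Lgr5+ cells and 4.02, 4.29 and 4.43 in Mex3a- Lgr5- cells. The groups did not overlap (log2 difference 0.54, SE 0.0891, limma adjusted p = 0.00115), and 5 of the 6 Mex3a- arrays lay below the filter level, so that the gene passed the filter only through its Mex3a+ arrays. Adamts16 did not overlap either, with 6.31 to 6.71 on Mex3a+ arrays and 5.96 to 6.26 on Mex3a- arrays (0.42, SE 0.0895, limma adjusted p = 0.00483). The other probe sets of Adamts4 and Adamts16 did not pass the filter, at means of 3.39 and 3.84, and gave 0.35 and 0.20. Adamts7, known to cut the cartilage protein COMP, had 5.72 to 6.51 on Mex3a+ arrays and 5.26 to 6.01 on Mex3a- arrays (0.43, SE 0.136, limma adjusted p = 0.0344). Its call was lost without any 1 of the 3 mice (adjusted p 0.0633 to 0.141). The call of Adamts16 was lost without MKL347 or MKL367 (adjusted p 0.0739 and 0.0912).

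The other aggrecanases gave smaller values. Adamts5 ranged from 6.37 to 6.59 on Mex3a+ arrays and from 6.30 to 6.58 on Mex3a- arrays, with a log2 difference of 0.06 (SE 0.0756, limma adjusted p = 0.581). Adamts1 had a log2 difference of 0.25 (limma adjusted p = 0.0968; 0.0485 with the mouse as a block), with 4.74 to 4.95 on Mex3a+ arrays and 4.20 to 4.81 on Mex3a- arrays. Its call with the block was kept in 3 of 15 fits that left out a mouse or an array (0.15 to 0.32, limma adjusted p up to 0.134). Adamts15 had -0.25 (limma adjusted p = 0.125; 0.0340 with the block) and was lower in 6 of 6 comparisons within a mouse, but -0.11 without mouse MKL358 (limma adjusted p = 0.220 with the block). The gene was near the filter level, with 4.34 to 4.47 on Mex3a+ arrays and 4.45 to 5.16 on Mex3a- arrays.

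Among the MMPs, Mmp11 and Mmp14 were higher in Mex3a+ cells. Mmp11, or stromelysin-3, is a secreted MMP that is activated by furin inside the cell, and in human carcinomas it is known mainly from the fibroblasts around the tumour. It was at 6.74, 6.32 and 6.85 in Mex3a+ Lgr5+ cells and 6.28, 5.48 and 6.71 in Mex3a+ Lgr5- cells. In Mex3a- Lgr5+ cells it was at 5.29, 5.28 and 5.88, and in Mex3a- Lgr5- cells at 4.52, 4.23 and 5.29. In every mouse the populations fell in the order Mex3a+ Lgr5+, Mex3a+ Lgr5-, Mex3a- Lgr5+, Mex3a- Lgr5-. Across mice the groups overlapped through the Mex3a+ Lgr5- array of MKL358. The log2 difference by Mex3a status was 1.32 (SE 0.230, limma adjusted p = 0.00158; 0.0797 without mouse MKL347), and within the mice it was 1.61, 1.14 and 1.20.

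Mmp14 (MT1-MMP) is a membrane-anchored collagenase that, together with TIMP2, activates proMMP2 on the cell surface. It was at 9.53, 9.33 and 9.50 in Mex3a+ Lgr5+ cells and 9.43, 9.20 and 9.36 in Mex3a+ Lgr5- cells, against 9.25, 9.07 and 9.23 in Mex3a- Lgr5+ cells and 8.85, 8.67 and 9.15 in Mex3a- Lgr5- cells. The same order of populations held in all 3 mice. The log2 difference was 0.35 (SE 0.0859, limma adjusted p = 0.0101; 0.159 without mouse MKL347), and the other probe set gave 0.34.

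Mmp7, which in the mouse intestine is known to activate Paneth cell defensins, was at 10.84, 10.56 and 10.51 in Mex3a+ Lgr5+ cells and 10.69, 10.24 and 10.58 in Mex3a+ Lgr5- cells. The values in Mex3a- Lgr5+ cells were 10.31, 10.29 and 10.62, and in Mex3a- Lgr5- cells 10.22, 9.84 and 10.71. The mice differed in direction, with log2 differences by Mex3a status of 0.50, 0.34 and -0.12. On average it was 0.24 (SE 0.136, limma adjusted p = 0.222), which was not called.

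Mmp9, a gelatinase that is stored in neutrophil granules, was at 4.48, 4.66 and 4.61 in Mex3a+ Lgr5+ cells and 4.55, 5.52 and 5.10 in Mex3a+ Lgr5- cells. In Mex3a- Lgr5+ cells it was at 4.58, 6.53 and 5.11, and in Mex3a- Lgr5- cells at 5.14, 6.72 and 4.89. Its 2 highest arrays were the Mex3a- arrays of mouse MKL358. Its log2 difference was -0.68 (SE 0.361, limma adjusted p = 0.193; 0.0198 with the mouse as a block), and -0.24 without mouse MKL358 (limma adjusted p = 0.181 with the block). The neutrophil genes S100a8 and S100a9, singled out after their values were seen, were highest on the same 2 arrays, at 7.50 and 8.29 and at 8.76 and 9.59. On the Mex3a+ arrays of that mouse they were at 5.26 and 6.42 and at 7.18 and 7.89. Of the 6 neutrophil markers on the array 3 passed the filter, and Ngp and Elane were above the filter level on 0 arrays. Csf3r, which passed beside S100a8 and S100a9, was also highest on the Mex3a- arrays of MKL358, at 5.24 and 5.64. By Mex3a status 0 of the 3 were called by limma without the block, and 2 were lower in Mex3a+ cells with it. The mean over the 6 markers was 4.27 to 5.13 on Mex3a+ arrays and 4.41 to 6.02 on Mex3a- arrays, and their part in the Mmp9 result was not tested.

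The inhibitor Timp2 gave the smallest adjusted p of all members. TIMP2 inhibits MMPs and, in a complex with MMP14, serves as the receptor for proMMP2. Timp2 was at 9.22, 8.76 and 9.14 in Mex3a+ Lgr5+ cells and 8.67, 8.44 and 8.84 in Mex3a+ Lgr5- cells. In Mex3a- Lgr5+ cells it was at 7.81, 8.06 and 8.37, and in Mex3a- Lgr5- cells at 7.31, 7.36 and 7.67. The lowest Mex3a+ array was above the highest Mex3a- array, and the order of the 4 populations seen in Mmp11 and Mmp14 held here too. These 3 were the members with this order in all 3 mice, which 1.59% of all genes tested had. The log2 difference by Mex3a status was 1.08 (SE 0.123, limma adjusted p = 0.000156), and all 5 probe sets of the gene were called, with 1.08 to 1.37.

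Timp1, a secreted inhibitor with growth factor-like activity, was at 6.85, 5.83 and 6.37 in Mex3a+ Lgr5+ cells and 6.47, 5.95 and 6.53 in Mex3a+ Lgr5- cells. It was lower in Mex3a- Lgr5+ cells, at 6.08, 5.44 and 5.79, and in Mex3a- Lgr5- cells at 5.18, 5.51 and 5.85. The groups overlapped across mice, but the gene was higher in 6 of 6 comparisons within a mouse (0.69, SE 0.189, limma adjusted p = 0.0180). The call was lost without MKL347 (adjusted p 0.131) or MKL367 (0.116). Timp3, the inhibitor that is bound to the matrix, had 5.50 to 6.88 on Mex3a+ arrays and 5.56 to 7.02 on Mex3a- arrays. Its log2 difference by Mex3a status was -0.16 (SE 0.251, limma adjusted p = 0.686).

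**Figure D2:**
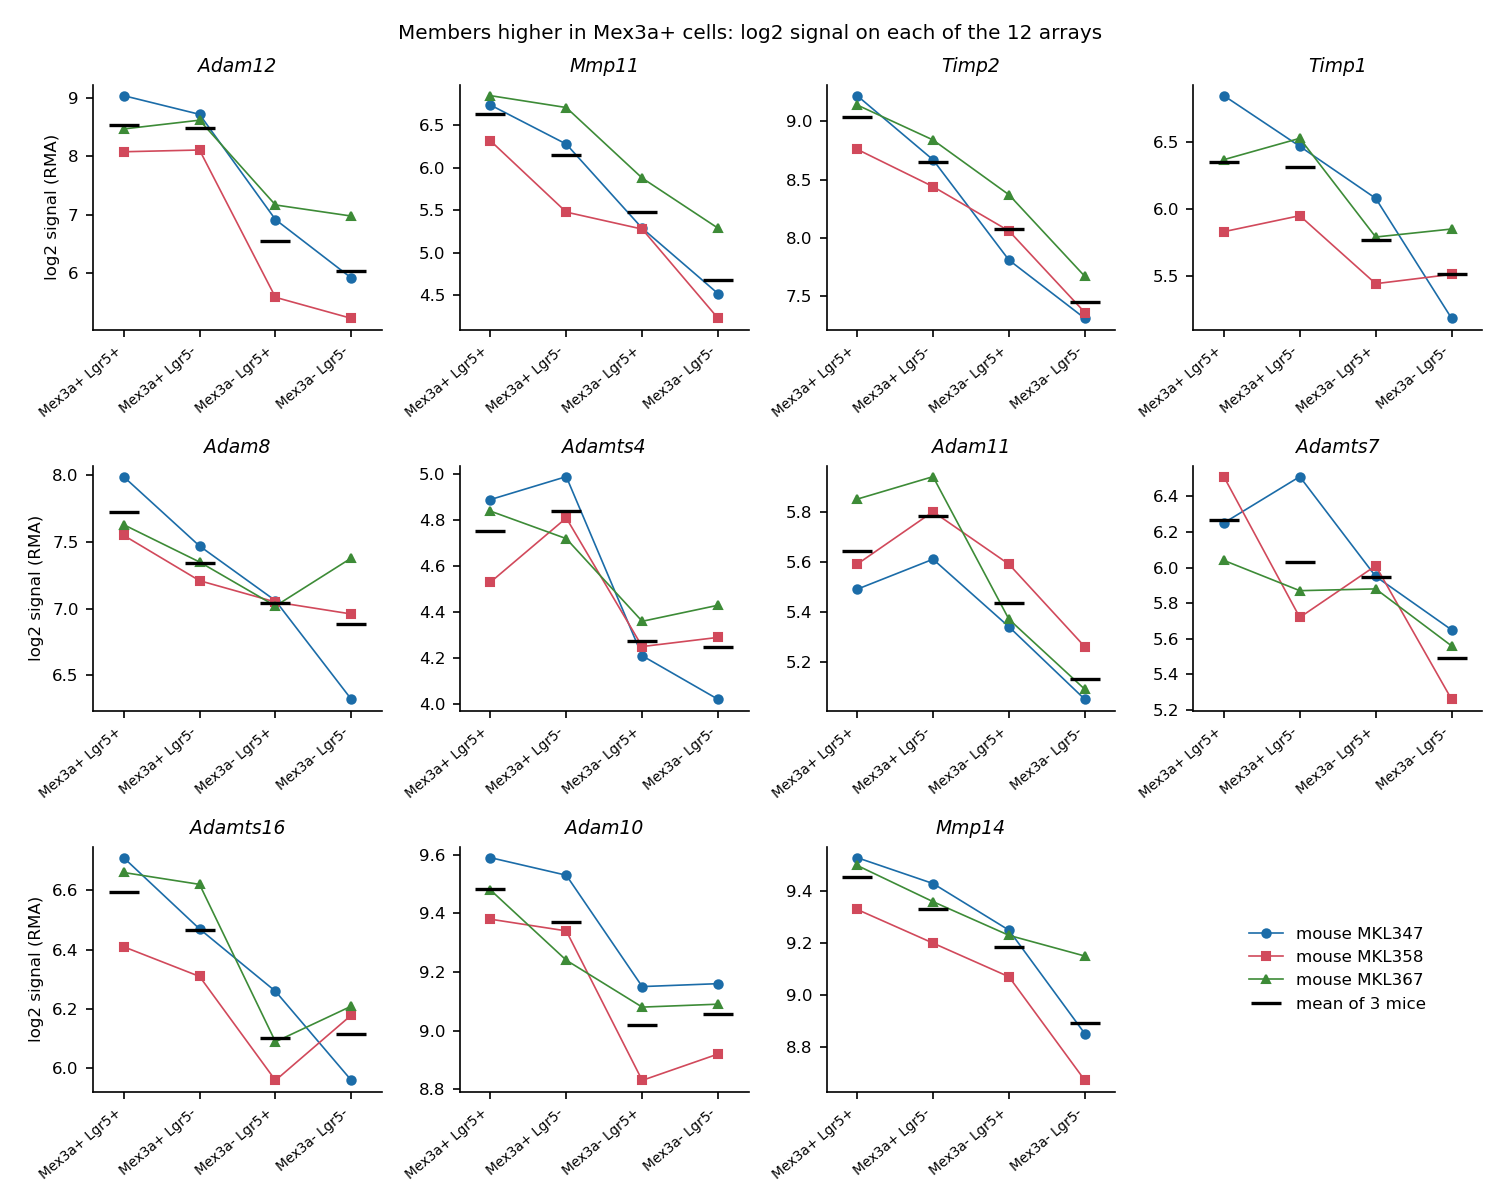
Log2 signal (y axis) of the 11 members called higher in Mex3a+ cells, 1 panel each, on the 12 arrays by population (x axis, Mex3a+ populations to the left), with a line per mouse and a black dash for the mean of 3 mice. The lines of Mmp11, Mmp14 and Timp2 step down from left to right in every mouse, and the Mex3a+ points of Adam12, Adam10, Adamts4, Adamts16 and Timp2 lie above all Mex3a- points.

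In 5 members (Adam10, Adam12, Adamts4, Adamts16 and Timp2) the 6 Mex3a+ arrays lay above all 6 Mex3a- arrays, which 4.27% of all genes tested did. Adamts4 is again counted as a description. In 0 members did they lie below (9.02% of all genes tested).

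The promoters of Timp2, Mmp11 and Mmp14 are shown because these 3 genes moved through the populations in the same order. The stretches run from 250 bases before to 50 bases after the start of the gene (RefSeq, GRCm38.p6), at chr11:118355362-118355661, minus strand, chr10:75932453-75932752, minus strand and chr14:54431348-54431647, plus strand. Such stretches were at hand for 35 of the 61 members. They were searched on both strands for the AP-1 motif with the letters TGANTCA, the TATA box with the letters TATAAA and the TCF/LEF motif with the letters ATCAAAG. In the promoters printed here no match overlaps another. TCF/LEF factors are those through which Wnt signals act. Matches are printed in capitals.
Timp2: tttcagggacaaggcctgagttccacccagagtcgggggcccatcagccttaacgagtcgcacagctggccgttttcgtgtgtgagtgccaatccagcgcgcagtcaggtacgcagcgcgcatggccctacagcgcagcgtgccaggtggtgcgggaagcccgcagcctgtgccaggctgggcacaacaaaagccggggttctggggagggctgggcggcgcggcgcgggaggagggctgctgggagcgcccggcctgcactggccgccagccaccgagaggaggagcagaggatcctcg
Mmp11: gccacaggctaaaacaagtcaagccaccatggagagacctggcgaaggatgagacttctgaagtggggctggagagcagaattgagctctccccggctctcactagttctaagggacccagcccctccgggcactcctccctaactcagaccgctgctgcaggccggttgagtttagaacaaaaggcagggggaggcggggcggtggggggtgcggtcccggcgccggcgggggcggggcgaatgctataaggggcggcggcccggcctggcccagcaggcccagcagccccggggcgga
Mmp14: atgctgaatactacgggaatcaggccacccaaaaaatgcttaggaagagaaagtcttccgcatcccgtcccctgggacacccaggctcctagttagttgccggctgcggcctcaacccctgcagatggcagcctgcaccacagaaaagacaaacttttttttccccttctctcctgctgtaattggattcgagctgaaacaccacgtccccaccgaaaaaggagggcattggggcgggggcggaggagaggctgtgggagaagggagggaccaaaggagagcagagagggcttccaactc

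The 3 sequences hold none of the 3 motifs, and hold 25, 19 and 10 CpG dinucleotides (the median over all promoters was 7). The 6 called members with a promoter at hand (Adam8, Adam10, Mmp11, Mmp14, Timp1 and Timp2) had 0 matches. Over all 32851 promoters of the same length, 7.81% held the AP-1 motif, 13.6% the TATA box and 3.73% the TCF/LEF motif. A match is a description of the letters, and its absence says only that these letters are not in this window.

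The Mex3a effect was next taken within each Lgr5 state (3 arrays against 3). In Lgr5- cells the groups also differ in Lgr5 itself, as given above, and its part in these values was not tested. In Lgr5+ cells 5 members were higher in Mex3a+ than in Mex3a- cells (3.21% of all genes tested) and 0 lower (4.8%): Adam12, Timp2, Adamts16, Adamts4 and Adam10, with log2 differences of 1.97, 0.96, 0.49, 0.48 and 0.46. In Lgr5- cells 6 members were higher (5.15%) and 0 lower (11.7%): Adam12, Mmp11, Timp2, Adam11, Adamts4 and Mmp14, with 2.44, 1.48, 1.20, 0.65, 0.60 and 0.44. Adamts4, which passed the filter only through its Mex3a+ arrays, stands in both counts as a description. Mmp11 had 1.15 in Lgr5+ cells, just outside the threshold (SE 0.325, limma adjusted p = 0.0508), against 1.48 in Lgr5- cells (SE 0.325, limma adjusted p = 0.0101). The test of the difference between both effects, the interaction, called 0 members (0.0% of all genes tested; 1 member and 359 genes before adjustment). Blocked by mouse it also called 0 (0.0%), so no member was shown to respond to Mex3a status differently in Lgr5+ and Lgr5- cells.

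With the mouse as a block, 8 members were higher and 2 lower in Lgr5+ cells (8.84% and 13.2% of all genes tested), and 10 were higher and 1 lower in Lgr5- cells (10.8% and 21.1%). Adam9 was lower in both states (-0.43 and -0.65, limma adjusted p = 0.00427 and 0.000165 with the block). Timp1 was higher in Lgr5- cells with the block (0.80, limma adjusted p = 0.00811), and Adam8 in Lgr5+ cells (0.68, limma adjusted p = 0.0302). Without the block, 0 members were called in either state when mouse MKL347 was left out, which leaves 2 arrays against 2. The log2 differences were then 0.47 for Adam10, 1.89 for Adam12 and 0.73 for Timp2 in Lgr5+ cells, and 0.69 for Adam11, 1.12 for Timp2 and 2.26 for Adam12 in Lgr5- cells. In Lgr5+ cells the count was also 0 without the Mex3a+ Lgr5+ array of MKL347 or of MKL367 or without the Mex3a- Lgr5+ array of MKL347. It was 1 without mouse MKL367 or the Mex3a- Lgr5+ array of MKL358, and 2 without the Mex3a- Lgr5+ array of MKL367. For these smaller fits, too, the share of all genes called was not counted.

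The last comparison asked how the genes differed by Lgr5 status, averaged over Mex3a status. In limma's fit 0 of the 32 tested members passed in either direction (0.0397% of all genes tested were called), with 4 members and 783 genes at an unadjusted p under 0.05. Once blocked by mouse, Mmp11, Timp2 and Timp3 were higher in Lgr5+ cells (1.18% of all genes tested were higher) and 0 members lower (0.627%). Each of the 3 was higher in 6 of 6 comparisons within a mouse.

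Timp3 was at 6.42, 6.88 and 6.17 in Mex3a+ Lgr5+ cells, against 5.91, 6.82 and 5.50 in Mex3a+ Lgr5- cells. In Mex3a- cells it was at 6.55, 7.02 and 6.76 in Lgr5+ cells, against 5.96, 6.82 and 5.56 in Lgr5- cells. Mouse MKL358 stood above the others in all 4 populations and had the smallest difference by Lgr5 status, 0.12, against 0.55 in MKL347 and 0.93 in MKL367. The average was 0.54 (limma adjusted p = 0.825; 0.0435 with the block). Its other probe sets gave smaller values of 0.39, 0.17 and 0.27, which were not called without the block and were not fitted with it. The call with the block was kept in 4 of 15 fits that left out a mouse or an array. For Mmp11, the log2 difference by Lgr5 status was 0.64 (limma adjusted p = 0.608; 0.0118 with the block), and for Timp2 it was 0.51 (limma adjusted p = 0.282; 0.0101 with the block). Both kept the call in 13 of 15 such fits. Mmp11 lost it without MKL347 or MKL358 (limma adjusted p = 0.0860 and 0.104), and Timp2 without MKL358 or MKL367 (0.0671 and 0.0833).

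Within Mex3a- cells, the blocked fit called Mmp11 (0.80, limma adjusted p = 0.0237) and Timp2 (0.64, limma adjusted p = 0.0217) higher in Lgr5+ cells (0.81% of all genes tested), and 0 members without it (0.0318% of all genes tested were called). Within Mex3a+ cells 0 members were called in either fit (0.0% and 0.0715% of all genes tested). Their differences there were 0.48 for Mmp11 and 0.39 for Timp2, and the interaction did not tell the states apart (limma adjusted p = 0.717 and 0.721 with the block). All 12 arrays enter both average effects, which therefore share their samples.

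**Figure D3:**
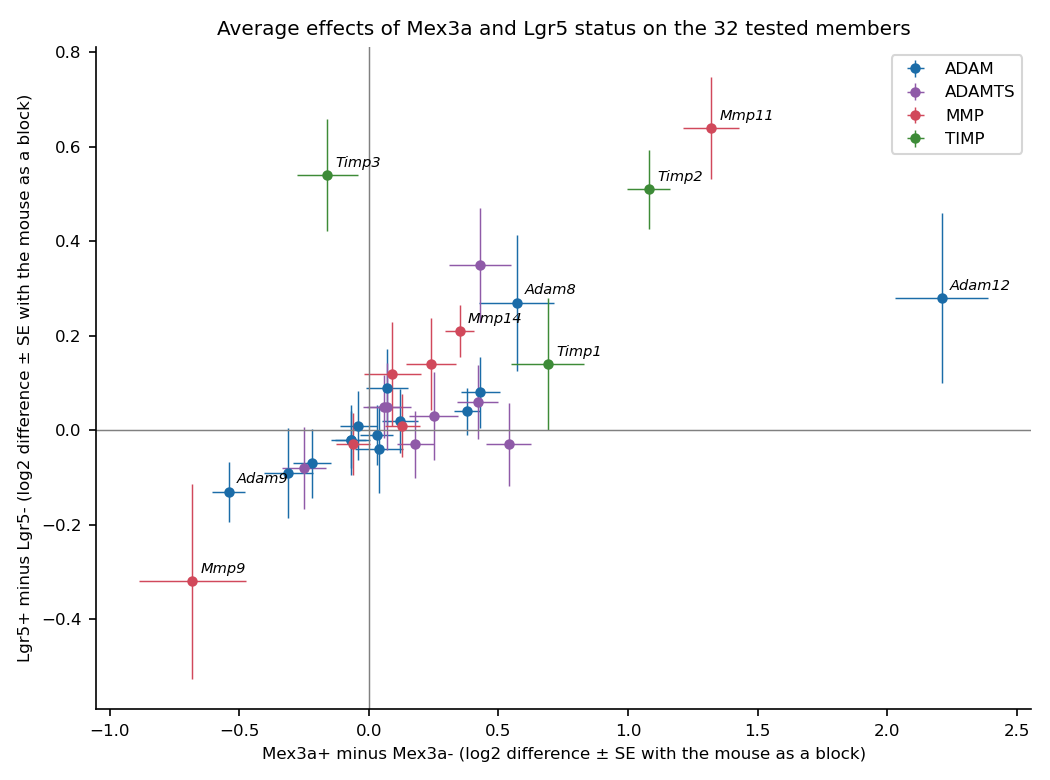
Average Mex3a effect (x axis) against average Lgr5 effect (y axis), both as log2 differences with the standard error of the fit blocked by mouse, for the 32 tested members. Adam12 lies far right near 0.28 on the y axis, Mmp11 and Timp2 lie right of and above 0, and Timp3 lies above 0 at an x value of -0.16.

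Of the 29 members that were not tested, Mmp13, Mmp10 and Mmp2 stood out on 1 array (Mmp10 was singled out after its values were seen). That array was the Mex3a- Lgr5+ array of mouse MKL367. Mmp13, a collagenase that cuts fibrillar collagen, was at 6.85 on it and between 2.67 and 2.85 on the other 11 arrays. Mmp10, or stromelysin-2, was at 7.15 on it, against 3.97 to 4.15 on the others. Mmp2, a gelatinase made mainly by fibroblasts, was at 4.84, against 3.71 to 4.39 on the others. The Mex3a- Lgr5+ arrays of the other mice and the other arrays of MKL367 were not raised, so no difference between populations can be read from these values. The remaining untested members ranged over at most 0.75 across the 12 arrays, and Mmp3, another stromelysin, ranged from 3.89 to 4.58.

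The same array had the highest mean of the fibroblast and smooth muscle markers. Col3a1, Col1a1 and Dcn, singled out after their values were seen, were at 9.34, 8.70 and 7.25 on it and at most at 6.86, 6.74 and 4.88 on the others, and Thy1 was at 5.23 against at most 5.01. Acta2, Myh11, Des and Pdgfrb were not highest there: Acta2 was at 7.01 and reached 8.06 elsewhere, Myh11 was at 5.53 and reached 5.90, Des was at 4.72 and reached 4.98, and Pdgfrb was at 5.41 and reached 5.46. The mean over the 12 markers was 5.69 on it and 4.73 to 4.99 on the other 11 arrays. By population, this mean was 4.74 to 4.92 in Mex3a+ Lgr5+ cells, 4.81 to 4.93 in Mex3a+ Lgr5- cells, 4.73 to 5.69 in Mex3a- Lgr5+ cells and 4.74 to 4.99 in Mex3a- Lgr5- cells. Of the 12 markers 8 passed the filter. Without the block 0 of these 8 were called by Mex3a status, and with it 1 was higher in Mex3a+ cells and 0 lower. Col1a2, Lum, Pdgfra and Postn were above the filter level on 0 arrays. The part of the 12 markers in the Mmp13, Mmp10 and Mmp2 values was not tested.

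**Figure D4:**
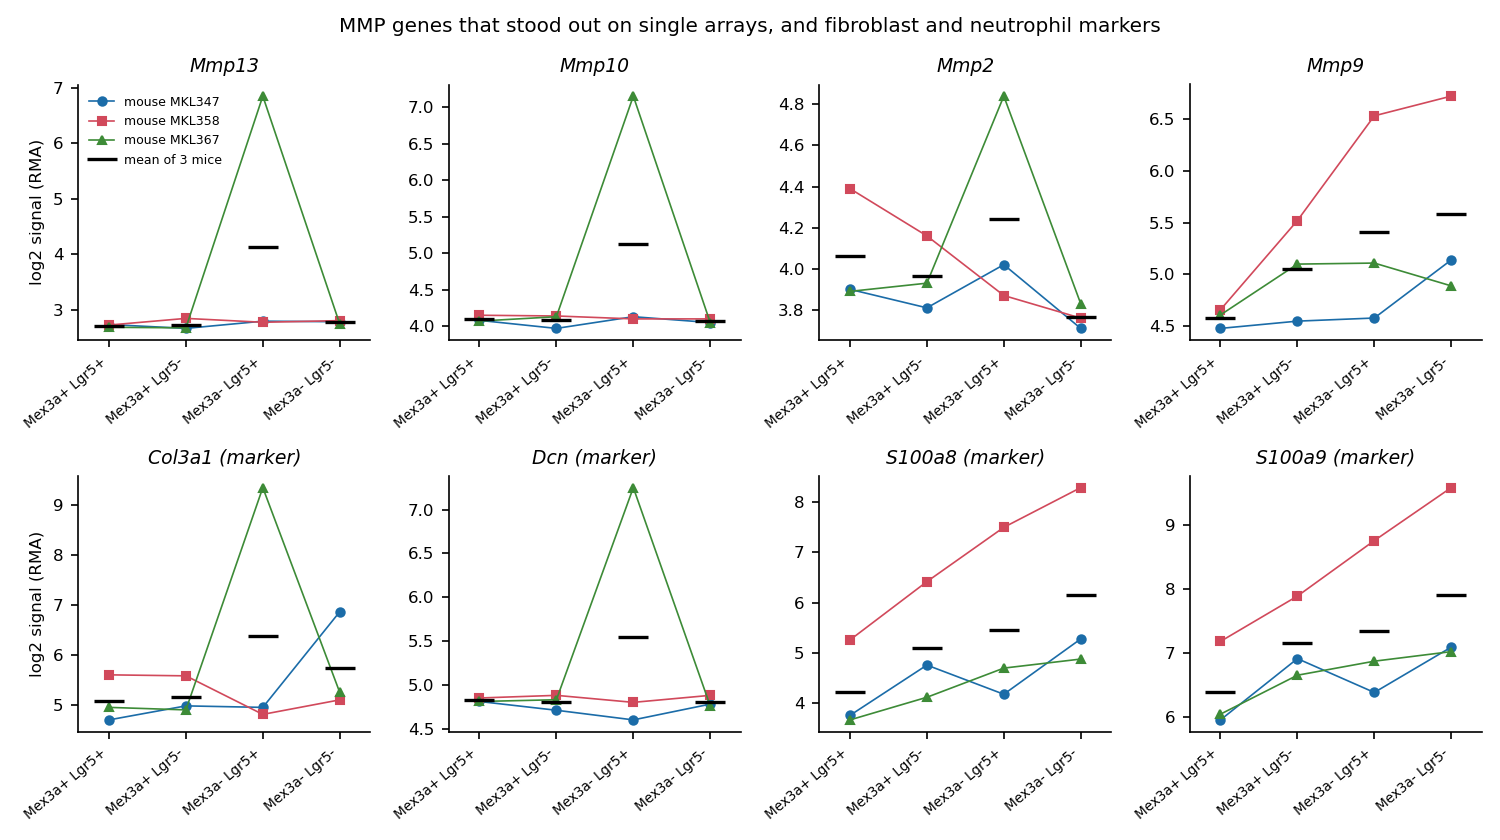
Log2 signal (y axis) of Mmp13, Mmp10, Mmp2 and Mmp9 beside the marker genes Col3a1, Dcn, S100a8 and S100a9 on the 12 arrays by population (x axis), with a symbol and line for each mouse and a black dash for the mean of 3 mice. The Mex3a- Lgr5+ array of mouse MKL367 stands alone for Mmp13 (6.85), Mmp10 (7.15), Col3a1 (9.34) and Dcn (7.25), and the Mex3a- arrays of mouse MKL358 are the highest for Mmp9, S100a8 and S100a9.

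Mmp13, Mmp10 and Mmp7 belong to a row of 10 neighbouring MMP genes on chromosome 9, of which 9 are members. Mmp13 and Mmp10 were above the filter level on 1 array and Mmp7 on all 12, and their promoters are shown to set them side by side (RefSeq, GRCm38.p6, at chr9:7272264-7272563, plus strand, chr9:7502092-7502391, plus strand and chr9:7691840-7692139, plus strand). Capitals mark the AP-1, TATA and TCF/LEF motifs given above.
Mmp13: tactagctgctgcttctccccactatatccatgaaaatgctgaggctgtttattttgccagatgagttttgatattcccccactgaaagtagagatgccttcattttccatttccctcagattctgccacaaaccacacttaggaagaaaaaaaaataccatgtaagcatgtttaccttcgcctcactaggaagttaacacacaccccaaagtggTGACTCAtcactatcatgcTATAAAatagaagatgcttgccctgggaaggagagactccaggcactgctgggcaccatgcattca
Mmp10: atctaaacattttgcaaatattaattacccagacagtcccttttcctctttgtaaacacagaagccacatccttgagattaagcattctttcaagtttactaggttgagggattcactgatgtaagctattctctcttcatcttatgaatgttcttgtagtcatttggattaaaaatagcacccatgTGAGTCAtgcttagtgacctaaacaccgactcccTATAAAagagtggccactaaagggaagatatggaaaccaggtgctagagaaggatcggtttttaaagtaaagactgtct
Mmp7: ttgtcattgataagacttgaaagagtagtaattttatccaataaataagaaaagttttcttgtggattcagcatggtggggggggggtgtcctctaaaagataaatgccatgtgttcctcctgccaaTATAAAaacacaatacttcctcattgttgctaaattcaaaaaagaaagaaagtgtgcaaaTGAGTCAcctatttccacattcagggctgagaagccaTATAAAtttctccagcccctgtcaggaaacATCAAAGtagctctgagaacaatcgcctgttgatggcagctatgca

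Of the 9 members in the row, the AP-1 motif was found in 8 (Mmp8 was without) and the TATA box in 9. Mmp7 counts for both motifs through the start printed here. It has another start, with a stretch at chr9:7692091-7692390, plus strand. That stretch held 0 AP-1 motifs, 0 TATA boxes, 1 TCF/LEF motif and 7 CpG dinucleotides, which is the median over all promoters. The TCF/LEF motif was found in Mmp7 alone among the 9. Of the 35 members with a promoter at hand, 11 held the AP-1 motif, 11 the TATA box and 1, Mmp7, the TCF/LEF motif. Counted by promoter, 27.5%, 27.5% and 5.0% of the 40 promoters of these members held them. Over all promoters it was 7.81%, 13.6% and 3.73%. The 5.0% stands for 2 promoters, both of Mmp7, whose stretches overlap and share 1 ATCAAAG site, so a single site is counted 2 times. Of the 11 members with the AP-1 motif, 8 lie in this row of MMP genes, as do 9 of the 11 with the TATA box. The printed sequences of Mmp13, Mmp10 and Mmp7 hold 1, 2 and 1 CpG dinucleotides, against 25, 19 and 10 in those of Timp2, Mmp11 and Mmp14.

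Genes that act with these families were counted from lists by role, and the counts by Mex3a status stand beside 9.91% higher and 17.3% lower over all genes tested. Of 10 tested partners and activators of ADAM10, ADAM17 and the MMP proenzymes, 1 was higher in Mex3a+ cells, 3 were lower and 6 were not called (median log2 difference -0.14, against -0.013 over all genes tested). The tetraspanins that carry ADAM10 to the cell surface did not move together: Tspan5 was higher (0.77), while Tspan15 (-0.90) and Tspan33 (-0.81) were lower. Tspan14 (0.09) and Tspan17 (0.04), named after their values were seen, were not called. Pcsk7, a proprotein convertase, was lower (-0.75). The limma adjusted p of Tspan5, Tspan15, Tspan33 and Pcsk7 was at most 0.000858.

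Of 9 tested genes of the plasminogen system and other regulators of matrix proteolysis, 4 were higher, 1 lower and 4 not called (median 0.05). Plat, the tissue plasminogen activator, was higher by 1.52 on the log2 scale, and Lcn2, whose human protein binds MMP9, by 1.63. Spock2, a proteoglycan known to affect MMP activation, was higher by 1.45, and Cd44, a receptor that can hold MMPs at the cell surface, was lower (-0.56). Of 11 astacin proteases and related genes, 1 was higher, 3 lower and 7 not called (median -0.07). Bmp1, which trims procollagens, was higher (1.13), and the brush border proteases Mep1b (-1.87) and Mep1a (-0.80) and the procollagen binding Pcolce2 (-0.86) were lower.

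Of 10 membrane serine proteases and their inhibitors, 0 were higher, 6 lower and 4 not called (median -0.25), among them Prss22 (-1.59), Tmprss2 (-0.72), Prss8 (-0.69) and the inhibitor Spint2 (-0.27). Of 25 tested proteins known to be shed by ADAMs, 3 were higher, 11 lower and 11 not called (median -0.14). The EGF receptor ligand Tgfa was higher (0.53), and the adhesion molecule L1cam (-1.25) and the TNF receptors Tnfrsf1a (-0.50) and Tnfrsf1b (-0.45) were lower. The EGF receptor ligands did not move together: Btc was higher (0.45) and Hbegf lower (-1.03), both named after their values were seen. Nor did the Notch receptors and ligands of this list, also named afterwards. Notch1 was higher (0.42), Jag1 lower (-0.32), and Notch2 (-0.14) and Dll1 (-0.09) were not called. Of 18 matrix substrates, 3 were higher, 1 lower and 14 not called (median 0.03), with Col2a1 at 0.46, Col7a1 at 0.31, the perlecan gene Hspg2 at 0.30 and the basement membrane collagen Col4a2 at -0.77. With the mouse as a block, Plaur, the receptor of urokinase (-0.80, limma adjusted p = 1.48e-05), and Furin (-0.21, limma adjusted p = 0.0294) were also lower, and Fn1 (0.48), Eln (0.29) and St14 (0.13) higher. By Lgr5 status, 0 genes of these 6 lists were called by limma without the block. With it, Thbs2 (1.02, limma adjusted p = 5.85e-05), Alcam (0.55), Hspg2 (0.34) and Tspan5 (0.32) were higher in Lgr5+ cells and Pcolce2 (-0.43) lower. The genes given with the block are named for the change of call, after their values were seen.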

How the data were processed

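Gene expression was measured on 12 Affymetrix mouse arrays. The authors deposited log2 signals, computed by RMA per the submitters' processing notes; its software and settings were not given in the sources used here. Per the labels' protocols, 25 ng of total RNA was amplified as a whole transcriptome and 8 µg of cDNA was labelled. The number of arrays limits the precision.

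Of 45141 probe sets, 28898 carry 1 gene symbol in GEO's platform annotation, 551 several and 15692 none; those with several or none were left out. Each gene was taken from its brightest probe set over the 12 arrays. Genes above the 40th percentile (4.40) on at least 3 arrays were fitted (limma 3.58.1, R 4.3.3) with 1 mean per population and an empirical Bayes trend. Tests were 2-sided, with Benjamini-Hochberg adjustment over 12595 genes and calls under 0.05; all adjusted p-values and standard errors are limma's. The script was tested on simulated data.

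The mouse number in the sample titles pairs the arrays, since same-numbered arrays come from 1 mouse. With group means removed, the 18 pairs of arrays of 1 mouse had a correlation across genes of 0.349 to 0.694, and the 36 pairs that differed in mouse and population had -0.465 to 0.152. Blocking by mouse was an alternative, beside no filter, a stricter filter, quantile normalization, median centring, the mean of all probe sets, other empirical Bayes settings, and leaving out each mouse and array. Leaving out mice and arrays together with the block was added after the data were seen, and is given only for members called with the block alone. All other values with a mouse or an array left out are from the fit without the block, which does not use the pairing.

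Members and gene lists were chosen with earlier results of these data known. Named were all members called in any comparison (with the block, up to 6 per direction), a fixed set of textbook members, and up to 4 genes with the smallest p per list. Promoter sequences came from RefSeq (GRCm38.p6). Tables and plots were made with pandas 2.3.3 and matplotlib 3.10.9 in Python 3.11.15.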

Additional observations from a re-analysis of the deposited data

Results flagged for a closer look

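For Adam10 and Adam11 the difference by Lgr5 status had opposite signs in Mex3a+ and Mex3a- cells, with all 3 mice on one side in each state. The share of all genes tested with this pattern was not counted. For Adam10, Lgr5+ minus Lgr5- was 0.11 in Mex3a+ cells (0.04 to 0.24 over the mice) and -0.04 in Mex3a- cells (-0.09 to -0.01). The difference of 0.15 between states was smaller than its SE of 0.159, so no change of Adam10 was shown. For Adam11 it was -0.14 in Mex3a+ cells (-0.20 to -0.09) and 0.30 in Mex3a- cells (0.28 to 0.33), a difference of -0.44 (SE 0.175). The interaction passed for neither gene (limma adjusted p = 1.0 for both; 0.721 for Adam10 and 0.448 for Adam11 with the mouse as a block). These values are given without an explanation.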

How the results depend on the processing

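With the mouse as a block, which uses the pairing of the arrays, the calls numbered 17 in place of 11 for the average Mex3a effect, 3 in place of 0 for the average Lgr5 effect, 10 in place of 5 for the Mex3a effect in Lgr5+ cells, 11 in place of 6 for it in Lgr5- cells, and 2 in place of 0 for the Lgr5 effect in Mex3a- cells. The mean of all probe sets gave 2 calls for the Mex3a effect in Lgr5+ cells. Without the block, leaving out a mouse or an array gave 4 to 12 calls for the average Mex3a effect (4 without MKL347, 7 without MKL367). For the Mex3a effect in Lgr5+ cells it gave 0 to 7 calls, and in Lgr5- cells 0 to 9. The share of all genes called in these smaller fits was not counted, so a lower count is not read as particular to the members. In the fit without the block, the calls of Adam8, Adam10, Adamts7, Adamts16, Mmp11, Mmp14 and Timp1 for the average Mex3a effect were lost without MKL347 (limma adjusted p 0.0527 to 0.159). Those of Adam11, Adamts7, Adamts16 and Timp1 were lost without MKL367 (0.0912 to 0.116). For these calls, leaving out a mouse together with the block is not given. Median centring of each array ended the call of Adamts7 (0.40, limma adjusted p = 0.0516). Mmp7 passed without the Mex3a- Lgr5- array of MKL367 (0.35, limma adjusted p = 0.0402), and Adam9 without mouse MKL358 (limma adjusted p = 0.00300). Directions turned only in values that were not called: the average Mex3a effect of Adam17 was -0.00193 after median centring, -0.03 without the Mex3a+ Lgr5- array of MKL347 and -0.00648 without the Mex3a- Lgr5- array of MKL367, and that of Timp3 was 0.02 without the Mex3a- Lgr5- array of MKL358. Over all 15 such omissions they lay between -0.03 and 0.07 for Adam17 and between -0.35 and 0.02 for Timp3. The cause was not tested. The pools of MKL358 held fewer cells than the others, so cell number and mouse cannot be told apart. Of all recomputed values, 764 kept direction and side of the threshold, 94 passed only under the alternative, 69 no longer passed and 4 turned.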
